A study of Mus musculus with 19 samples.

Results

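Hindgut epithelium of mouse embryos at embryonic day 14 (E14) was compared with that at embryonic day 12 (E12), across all genes. The comparison rests on 4 of the 19 samples of the series, which are 2 libraries at E14 and 2 at E12, and they were chosen by age and tissue alone. Every library held RNA of Epcam-positive cells, which were sorted by flow cytometry from dissected, trypsin-digested hindguts of wild-type CD1 embryos, an outbred strain, with no treatment at either age. The labels call the 2 libraries of an age biological replicates but do not say how many embryos went into each, so the p-values measure only the spread between these samples. Another 2 libraries each of E11 and E16 hindgut, prepared the same way, entered the model to share its estimate of spread and to place the change among neighbouring ages. Any collection or preparation that the 2 libraries of an age shared cannot be told apart from age.

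The hindgut is the posterior end of the embryonic gut tube and gives rise to the colon, the rectum and part of the cloaca, from which the bladder and urethra also form. Its endoderm begins as a thick, dividing layer and becomes a columnar epithelium whose absorptive cells carry an apical brush border of microvilli, among which mucus-secreting goblet cells and hormone-secreting enteroendocrine cells lie. Intestinal identity is known to depend on the homeobox factors of the CDX family, and the enterocyte programme on nuclear receptors of the HNF4 family, while Hedgehog, Wnt, BMP and Notch signals pass between the epithelium and the mesenchyme around it or between neighbouring epithelial cells.

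The 2 E14 libraries held 22605165 and 23685904 reads assigned to genes, and the 2 E12 libraries held 26810809 and 28371546. The E11 and E16 libraries ranged between 13826958 and 30583908. Of 24062 genes in the table, 16481 had enough counts to be tested. Levels are given as CPM, counts rescaled to a common library size with the trimmed mean of M-values, replicate 1 before replicate 2, and they are not corrected for gene length, so they are compared between ages and not between genes. Epcam, the marker of the sort, stood at 1428 and 1393 CPM at E14, against 1021 and 1226 CPM at E12, and the epithelial keratin gene Krt8 at 1082 and 1115 CPM at E14, against 629.8 and 715 CPM at E12, so the defining markers of epithelium were present at both ages. All fold changes below are E14 over E12 on the log2 scale with their standard error (SE), and adjusted p-values come from edgeR's quasi-likelihood test with Benjamini-Hochberg adjustment over all 16481 genes at a threshold of 0.05. Most named genes were also tested under up to 16 alternatives (other scalings, tests, filters or libraries), and the called members of each list were counted again under each.

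At that threshold 4672 genes (28.3% of those tested) differed between E14 and E12, of which 2381 (14.4%) were higher at E14 and 2291 (13.9%) were lower. Among them, 1316 rose and 827 fell by at least 2-fold. Counts of called members in every gene list below are to be read against the 14.4% and 13.9% of all genes. The median gene moved by -0.02 on the log2 scale, so after scaling the 2 ages were centred on each other. The values of the 2 ages did not overlap in 4671 of the called genes. Since nearly every called gene had this, lack of overlap describes a called gene, here and below, and adds no evidence to its call. With 2 libraries an age, unchanged genes can also be free of overlap. Leaving out E14 replicate 1, E14 replicate 2 or E12 replicate 1 left 1717, 1877 or 3104 calls, with 1 library then standing for that age and assumed to vary like the others. In RNA from many cells together, fewer cells of a type and less RNA per cell cannot be told apart, here and in all that follows.

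**Figure D1:**
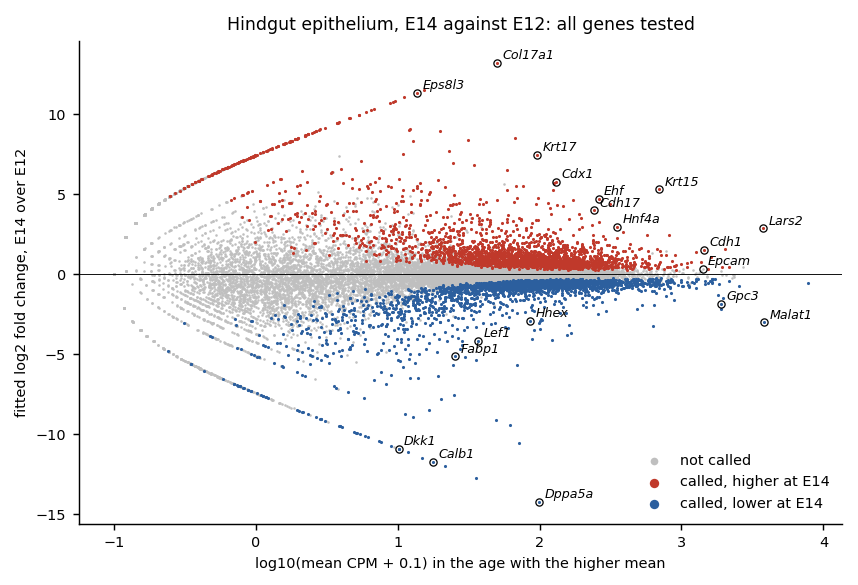
Fitted log2 fold change of E14 over E12 (vertical axis) against the log10 mean CPM plus 0.1 of the age with the higher mean (horizontal axis) for the 16481 genes tested, one point per gene; red and blue points mark genes called higher and lower at E14. Calls run in both directions in near equal number (2381 and 2291), and the outer curves are genes with no count at one age, whose fitted fold change is no measured size.

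The transcription factors of the intestinal epithelium moved mostly upwards. Of the 35 listed, 14 rose and 4 fell, against 14.4% and 13.9% of all genes, with a list median of 1.14 on the log2 scale. The count of falls was 2 when E14 replicate 1, E14 replicate 2 or E12 replicate 1 was left out. Cdx1, a homeobox factor of posterior gut identity, stood at 136 and 126 CPM at E14, against 1.6 and 3.17 CPM at E12 (log2 fold change 5.77 ± 0.30, adjusted p = 8.48e-05). Both E14 libraries lay far above both E12 libraries, and Cdx1 was also lower at E12 than at E11, where it stood at 18 and 24.5 CPM (adjusted p = 0.00491 for E12 against E11). Its paralogue Cdx2 showed no such difference at 197 and 106 CPM at E14, against 164 and 223 CPM at E12, with overlapping values (log2 fold change -0.35 ± 0.31, adjusted p = 0.432). Hnf4a, a nuclear receptor that drives enterocyte genes, stood at 367 and 338 CPM at E14, against 31.9 and 59.3 CPM at E12 (log2 fold change 2.95 ± 0.28, adjusted p = 5.89e-04), without overlap. The E11 libraries had 7.18 and 5.23 CPM of Hnf4a and the E16 libraries 318 and 278 CPM, with the highest values at E14, although E16 against E14 did not pass the test (adjusted p = 0.491).

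Several ETS and Krüppel-like factors known from differentiated gut epithelium changed in the same direction as Hnf4a. Ehf, an epithelial ETS factor, had 268 and 253 CPM at E14, against 4.94 and 14.8 CPM at E12 (log2 fold change 4.72 ± 0.59, adjusted p = 0.00163). Elf3, a relative of Ehf, had 235 and 241 CPM at E14, against 58 and 52.5 CPM at E12 (log2 fold change 2.11 ± 0.22, adjusted p = 8.64e-04). Klf4, known for its role in goblet and surface cells, had 70.4 and 79.8 CPM at E14, against 22.7 and 15.8 CPM at E12 (log2 fold change 1.96 ± 0.24, adjusted p = 0.00157). Klf5, known from proliferating gut epithelium, had 683 and 668 CPM at E14, against 211 and 242 CPM at E12 (log2 fold change 1.58 ± 0.11, adjusted p = 1.93e-04). Each of these genes was higher in both E14 libraries than in both E12 libraries. Onecut2 moved the other way, with 1.31 and 1.16 CPM at E14, against 20.0 and 24.5 CPM at E12 (log2 fold change -4.17 ± 0.47, adjusted p = 0.00113), and it too had no overlap.

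The 250 bases before the start of each gene were searched on both strands for short binding motifs in RefSeq sequence of build GRCm38.p6, to describe the promoters of genes that rose beside Hnf4a. A promoter was at hand for 12173 of the genes tested. The HNF4-type motif CAAAGTNCA occurred in 156 of these promoters (1.28%), in 6 of the 74 (8.11%) whose gene rose at least 8-fold and in 17 of the 727 (2.34%) whose gene rose at least 2-fold. It occurred in 6 of the 403 (1.49%) whose gene fell at least 2-fold. The sets of rising and falling genes held only called genes averaging at least 10 CPM at the age with the higher mean. The 12173 promoters took in tested genes at any level, so the sets and this background also differ in expression. The CDX motif TTTATGG was found in 2.06% of all promoters and in 2 of the 74 (2.7%). The HNF4 motif was picked after the shares of 33 motifs had been seen. The other motifs searched were a second CDX motif, TTTATTG, the HNF4 forms CAAAGTCCA and, likewise within the HNF4 motif, CAAAGTTCA, the GATA motif GATAAG, the forkhead motif TGTTTAC and the KLF motif GGGTGTGG. Of the ETS family the forms were ACTTCCTG, then AGGAAGTG, then GGAAGGAA and the shorter CCGGAAG. For GRHL factors they were AACCGGTT and the looser AACCNGGTT, for AP1 the form TGACTCA, for CREB the form TGACGTCA, and for TCF the forms CTTTGAT and its extension CTTTGATC. The E-box was searched as CACGTG and the longer GGTCACGTG, the CCAAT box as CCAAT, the TATA box as TATAAA and the longer TATAAAA, and the MYB motif as CCGTTA. Octamer motifs were ATGCAAAT and the variant ATTAGCAT, and YY1 motifs were AAGATGGC and, on the other strand, CCATCTTT. The remaining ones, longer motifs of HNF1 in 3 forms, of NFI and of p63, are given by name only. Other motifs also had larger shares in the 74 than in all promoters, such as ACTTCCTG (8.11% against 3.24%) and TGACTCA (9.46% against 4.3%). The same held for GGGTGTGG (8.11% against 4.23%) and ATGCAAAT (5.41% against 1.61%). Some had smaller shares in the 74, such as CCGGAAG (8.11% against 13.3%) and GATAAG (4.05% against 6.02%). A match is a run of letters and not a shown binding site.

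Promoters with the HNF4-type motif are shown for 4 genes that were all higher at E14. These genes are Sec16b, an endoplasmic reticulum exit protein, Trim31, a ubiquitin ligase of the intestine, Clrn3, a clarin family membrane protein, and Tjp3, a tight junction scaffold. Sec16b lies on the forward strand (window chr1:157525920-157526169), Trim31 on the forward strand (chr17:36897880-36898129), Clrn3 on the reverse strand (chr7:135528655-135528904) and Tjp3 on the reverse strand (chr10:81291582-81291831). Each sequence runs 5′ to 3′ on the strand of its gene and ends at the base before the start, and capitals mark the motif on either strand.
Sec16b: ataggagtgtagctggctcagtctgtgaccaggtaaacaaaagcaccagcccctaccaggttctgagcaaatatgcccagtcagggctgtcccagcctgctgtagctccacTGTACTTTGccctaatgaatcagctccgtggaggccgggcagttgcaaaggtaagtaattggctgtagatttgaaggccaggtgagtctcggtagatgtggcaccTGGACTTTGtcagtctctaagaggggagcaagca
Trim31: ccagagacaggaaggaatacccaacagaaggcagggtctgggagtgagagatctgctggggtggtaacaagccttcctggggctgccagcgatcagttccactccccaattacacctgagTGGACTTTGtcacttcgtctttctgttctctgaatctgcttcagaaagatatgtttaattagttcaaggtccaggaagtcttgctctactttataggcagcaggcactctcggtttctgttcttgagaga
Clrn3: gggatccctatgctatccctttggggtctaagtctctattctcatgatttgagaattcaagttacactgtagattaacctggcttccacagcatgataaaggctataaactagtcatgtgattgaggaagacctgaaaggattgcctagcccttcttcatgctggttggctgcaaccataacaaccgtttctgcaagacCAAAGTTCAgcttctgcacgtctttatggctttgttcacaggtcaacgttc
Tjp3: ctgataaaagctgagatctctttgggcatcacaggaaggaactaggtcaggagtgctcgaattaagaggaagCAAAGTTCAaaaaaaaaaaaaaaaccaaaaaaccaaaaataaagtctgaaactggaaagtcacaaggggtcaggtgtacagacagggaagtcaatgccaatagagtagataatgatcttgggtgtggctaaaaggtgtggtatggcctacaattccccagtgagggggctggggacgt

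Sec16b had 9.06 and 13.1 CPM at E14 and no count in either E12 library, at least 209-fold higher when E12 is set to the floor of 3 counts over both libraries (adjusted p = 4.74e-04). Trim31 had 24.9 and 24.7 CPM at E14, against 0.69 and 0.906 CPM at E12 (log2 fold change 4.95 ± 0.28, adjusted p = 1.64e-04). Clrn3 had 45.2 and 42.1 CPM at E14, against 5.52 and 5.12 CPM at E12 (log2 fold change 3.04 ± 0.21, adjusted p = 1.67e-04). Tjp3 had 111 and 131 CPM at E14, against 44.9 and 47.1 CPM at E12 (log2 fold change 1.40 ± 0.12, adjusted p = 3.95e-04). In all of these genes both E14 libraries were higher than both E12 libraries.

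Genes of the brush border rose together at E14. Of the 26 tested, 18 rose and 1 fell, against backgrounds of 14.4% and 13.9%, and the list median was 1.51. Eps8l3, of the EPS8 family of actin-capping proteins in microvilli, had 13.3 and 14.1 CPM at E14 and no count at E12, at least 257-fold higher (adjusted p = 1.10e-04). It had no count at E11 either and 153 and 144 CPM at E16. Myo1a, the brush border myosin, had 12.3 and 16.3 CPM at E14, against 0.544 and 0 CPM at E12 (log2 fold change 5.71 ± 0.68, adjusted p = 0.00137). Cdhr2, a protocadherin that links the tips of microvilli, had 22.8 and 23.7 CPM at E14, against 0.871 and 1.39 CPM at E12 (log2 fold change 4.35 ± 0.40, adjusted p = 5.19e-04).

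Cdh17, the liver-intestine cadherin, had 251 and 230.4 CPM at E14, against 15.5 and 14.5 CPM at E12 (log2 fold change 4.00 ± 0.12, adjusted p = 3.07e-05). It was listed at 0 in both E11 libraries and at 471 and 434 CPM at E16, so it climbed at each age. Myo5b, a motor that carries vesicles to the apical membrane, had 70.4 and 68.1 CPM at E14, against 10.9 and 8.47 CPM at E12 (log2 fold change 2.84 ± 0.17, adjusted p = 9.74e-05). Vil1, the actin bundler villin, had 159 and 156 CPM at E14, against 38 and 52.3 CPM at E12 (log2 fold change 1.80 ± 0.15, adjusted p = 3.64e-04). Vil1 was thus already present at E12, whereas Eps8l3 was not detected there. Espn, an actin bundler of microvilli and of hair cell stereocilia, was the member that fell, with 60.2 and 63.6 CPM at E14, against 119 and 118 CPM at E12 (log2 fold change -0.94 ± 0.10, adjusted p = 8.20e-04). Slc9a3r1, a scaffold below the apical membrane, had 244 and 248 CPM at E14, against 287 and 243 CPM at E12 with overlapping values (adjusted p = 0.448).

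The absorptive programme followed the same direction in most of its parts. Of 18 digestive hydrolases tested, 10 rose and 1 fell (55.6% and 5.56%, against 14.4% and 13.9% of all genes), with a median of 1.81. Without E14 replicate 1 or E14 replicate 2 the rises numbered 6, and without any single library of the 2 ages no fall remained. Mep1a, the alpha subunit of the metalloprotease meprin, had 23 and 26.1 CPM at E14, against 1.09 and 1.29 CPM at E12 (log2 fold change 4.36 ± 0.24, adjusted p = 9.34e-05). Both E14 libraries were far above both E12 libraries. Dpp4, an apical dipeptidase, stood at 209 and 192 CPM at E14, against 169 and 189 CPM at E12 and did not pass the test (adjusted p = 0.371), although both E14 values lay above both E12 values.

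Surface and secreted products of colonocytes rose in 16 of 30 tested members and fell in none, with a median of 2.01. Their share of rises was 53.3%, where 14.4% of all genes rose and 13.9% fell. The rises numbered 8, 9, 9 and 10 when E14 replicate 1, E14 replicate 2, E12 replicate 1 and E12 replicate 2 were left out. Ceacam1, an adhesion molecule of the immunoglobulin family, had 70.8 and 67.4 CPM at E14, against 2.94 and 2.09 CPM at E12 (log2 fold change 4.78 ± 0.19, adjusted p = 3.22e-05). Lypd8, a secreted protein that keeps bacteria away from the adult colon surface, had 18 and 15.7 CPM at E14, against 0.798 and 0.174 CPM at E12 (log2 fold change 5.12 ± 0.72, adjusted p = 0.00237). Phgr1 had 7.49 and 5.18 CPM at E14, against 0.254 and 0 CPM at E12 (log2 fold change 5.61 ± 0.65, adjusted p = 0.00183). Muc4, a membrane mucin, had 4.92 and 5.56 CPM at E14 and no count at E12, at least 98.4-fold higher (adjusted p = 0.0037). All of these products were low or absent at E12 and higher in both E14 libraries.

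Ion and water transport is the main task of the mature colon, and 15 of its 36 listed genes rose and 3 fell. The shares were 41.7% and 8.33%, against 14.4% and 13.9% of all genes. The median was 1.60, or 1.30 with genes absent at one age set at their bound. The 3 that fell were Car4 (log2 fold change -4.98, adjusted p = 0.0422), Scnn1a (-2.11, adjusted p = 0.00132) and Slc40a1 (-0.42, adjusted p = 0.0428). Car4 is a carbonic anhydrase gene and Scnn1a encodes a sodium channel subunit. The falls numbered 1 without E14 replicate 1, E14 replicate 2, E12 replicate 1, E16 replicate 1 or E16 replicate 2, and 6 with DESeq2. Slc5a8, a sodium-coupled short-chain fatty acid carrier, had 15 and 14.1 CPM at E14, against 0.871 and 0.314 CPM at E12 (log2 fold change 4.61 ± 0.58, adjusted p = 0.00161). Best2, a bestrophin anion channel of the colon, had 7.4 and 4.77 CPM at E14, against 0.29 and 0 CPM at E12 (log2 fold change 5.36 ± 0.84, adjusted p = 0.00503). Atp1b1, the beta subunit of the sodium pump, had 406 and 363 CPM at E14, against 58.5 and 63.2 CPM at E12 (log2 fold change 2.66 ± 0.18, adjusted p = 1.48e-04), and the carbonic anhydrase gene Car2 had 277 and 282 CPM at E14, against 60.9 and 48.1 CPM at E12 (log2 fold change 2.36 ± 0.22, adjusted p = 5.55e-04). Slc12a2, a basolateral chloride importer, had 232 and 255 CPM at E14, against 78.1 and 59.9 CPM at E12 (log2 fold change 1.82 ± 0.15, adjusted p = 3.40e-04). S100g, a cytosolic calcium binder, had 30.0 and 28.7 CPM at E14, against 2.36 and 5.51 CPM at E12 (log2 fold change 2.90 ± 0.37, adjusted p = 0.00171). In each of these the groups were apart. Slc16a1, a lactate and butyrate carrier, had 252 and 227 CPM at E14, against 299.6 and 352 CPM at E12 and did not pass the test (adjusted p = 0.0781, below 0.05 in 4 of 16 alternatives, the lowest being 0.0234).

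Lipid handling went against the other absorptive groups in some of its best known members. Of 27 genes tested, 3 rose and 3 fell, with a median of -0.02, which is below the background share in both directions. The rises numbered 1 without E14 replicate 1, E14 replicate 2, or one or both E16 libraries, the falls 6 with DESeq2, and the median lay between -0.09 and 0.14 over the alternatives. Fabp1, a fatty acid binding protein of the proximal gut and liver, had 0.653 and 0.788 CPM at E14, against 24.4 and 26.3 CPM at E12 (log2 fold change -5.13 ± 0.46, adjusted p = 4.73e-04). It had been at 63.4 and 34.1 CPM at E11 and stood at 3.2 and 5.79 CPM at E16, so E14 was its lowest age. Rbp2, the intestinal retinol binder, had 1.04 and 0.747 CPM at E14, against 11 and 10.8 CPM at E12 (log2 fold change -3.60 ± 0.47, adjusted p = 0.00179). Acsl5, which activates long-chain fatty acids, had 171 and 188 CPM at E14, against 75.6 and 101 CPM at E12 (log2 fold change 1.02 ± 0.14, adjusted p = 0.00221), the opposite direction.

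**Figure D2:**
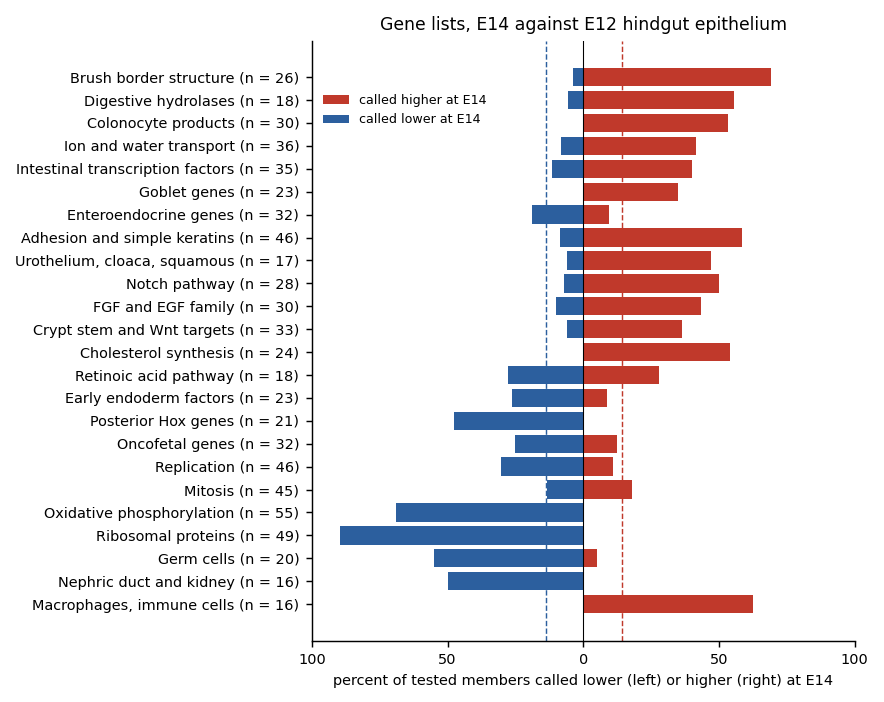
Percent of the tested members of each gene list called higher (red, right) or lower (blue, left) at E14, with the number tested beside each name; dashed lines mark the shares over all genes, 14.4% higher and 13.9% lower. Brush border genes (18 of 26 higher) and ribosomal protein genes (44 of 49 lower) stand at the ends.

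Of 23 goblet cell genes tested, 8 rose and none fell, with a median of 1.36, and 4 had a negative log2 fold change that did not pass the test; without E12 replicate 2 the falls numbered 2. The share of goblet genes that rose was 34.8%, against 14.4% of all genes. Atoh1, the factor that commits cells to the secretory lineage, had 9.36 and 8.54 CPM at E14, against 0.399 and 0 CPM at E12 (log2 fold change 5.48 ± 0.62, adjusted p = 0.00169). Creb3l1, a secretory pathway factor, had 95.8 and 93.6 CPM at E14, against 4.39 and 4.57 CPM at E12 (log2 fold change 4.40 ± 0.32, adjusted p = 2.05e-04). Ern2, the stress sensor of mucous cells, had 12.9 and 14.3 CPM at E14, against 0 and 0.627 CPM at E12 (log2 fold change 5.39 ± 0.60, adjusted p = 0.00164). Agr2, a disulfide isomerase needed for mucin folding, had 25.3 and 23.3 CPM at E14, against 4.21 and 2.75 CPM at E12 (log2 fold change 2.80 ± 0.45, adjusted p = 0.00396). These 4 genes were higher in both E14 libraries. Agr2 then reached 2038 and 2494 CPM at E16. Tff3, the trefoil peptide of goblet cells, had 12.8 and 13 CPM at E14, against 10.1 and 7.25 CPM at E12 and did not pass the test (adjusted p = 0.051, below 0.05 in 9 of 16 alternatives, the lowest being 0.00225). Muc2, the colonic gel mucin, had 0.0871 and 0.0415 CPM at E14, against 0.435 and 0 CPM at E12, so it was barely detected at either age.

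Of 32 enteroendocrine genes 3 rose and 6 fell (9.38% and 18.8%, near the 14.4% and 13.9% of all genes), with a median of -0.25, or -2.06 without E14 replicate 2 and 0 without E12 replicate 2. The rises numbered 1 without E14 replicate 2, E12 replicate 1, or one or both E16 libraries, and with the E14 and E12 libraries alone. Neurog3, the factor that commits cells to this lineage, had 0.784 and 2.2 CPM at E14 and no count at E12, at least 28.3-fold higher (adjusted p = 0.00705). Among the falls, Scg5, a chaperone of prohormone convertase, had 0.914 and 0.788 CPM at E14, against 19.9 and 13.2 CPM at E12 (log2 fold change -4.27 ± 0.38, adjusted p = 4.59e-04). Cpe, the carboxypeptidase that trims prohormones, had 24.8 and 31 CPM at E14, against 151 and 154 CPM at E12 (log2 fold change -2.45 ± 0.14, adjusted p = 9.34e-05). Rfx6, a factor of endocrine and of early endoderm cells, had 4.75 and 3.03 CPM at E14, against 27.3 and 23.3 CPM at E12 (log2 fold change -2.70 ± 0.33, adjusted p = 0.00148). The E12 libraries were above the E14 libraries in these 3 genes. The granins on the list, Chga, Chgb, Scg2 and Scg3, did not pass the test, with log2 fold changes between -2.10 (Scg3) and 3.59 (Chgb).

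Genes of epithelial junctions, simple keratins and basement membrane contact rose in 27 of 46 tested members and fell in 4, with a median of 0.70; the falls numbered 2 without E14 replicate 1. Cdh1, the epithelial cadherin, had 1439.8 and 1466 CPM at E14, against 482 and 538 CPM at E12 (log2 fold change 1.51 ± 0.08, adjusted p = 9.34e-05). Cdh2, the neural cadherin, had 3.88 and 4.81 CPM at E14, against 26.5 and 30.3 CPM at E12 (log2 fold change -2.71 ± 0.29, adjusted p = 9.62e-04). These cadherins moved in opposite directions with no overlap in either. Tjp1 and Cgn, scaffolds of tight junctions, both rose. Tjp1 had 241 and 209.8 CPM at E14, against 77.8 and 62.7 CPM at E12 (log2 fold change 1.68 ± 0.14, adjusted p = 3.40e-04). Cgn had 157 and 155 CPM at E14, against 47.9 and 46.3 CPM at E12 (log2 fold change 1.73 ± 0.13, adjusted p = 2.01e-04). Krt19, a keratin of simple epithelium, had 1592 and 1657 CPM at E14, against 667 and 856 CPM at E12 (log2 fold change 1.09 ± 0.11, adjusted p = 8.53e-04), and Krt8, given above, rose as well (log2 fold change 0.71 ± 0.09, adjusted p = 0.00172). Cldn6, a claudin of embryonic epithelia, had 643 and 634 CPM at E14, against 1087 and 1175 CPM at E12 (log2 fold change -0.83 ± 0.08, adjusted p = 6.08e-04). Itgb4, the hemidesmosome integrin, had 70.5 and 72.8 CPM at E14, against 7.66 and 5.16 CPM at E12 (log2 fold change 3.48 ± 0.57, adjusted p = 0.00441), with a wider error than the junction genes.

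Among the largest rises at E14 were genes of stratified and of urothelial epithelium, which line the outlet of the hindgut. Of 17 listed genes of urothelium, cloaca and squamous epithelium, 8 rose and 1 fell, with a median of 4.13. The rises numbered 4 without E14 replicate 2, E12 replicate 1 or E12 replicate 2, and the one fall, of Shh, is given with the Hedgehog genes. The summed level of the list was 1754 and 2097 CPM at E14, against 539.5 and 618.3 CPM at E12. Shh and Upk1a, which were present at both ages, are part of that sum. Col17a1 and Pkp1 lie outside the list and were named for the size of their rises. Col17a1, a hemidesmosome collagen of basal cells, had 41.7 and 58.1 CPM at E14 and no count at E12, at least 939-fold higher (adjusted p = 0.00215). Pkp1, a plakophilin of stratified epithelium, had 10.8 and 20.0 CPM at E14 and no count at E12, at least 290.0-fold higher (adjusted p = 0.00567). Krt15, a keratin of basal cells, had 597 and 787 CPM at E14, against 14.8 and 20.2 CPM at E12 (log2 fold change 5.30 ± 0.63, adjusted p = 0.00133). Krt17 had 95.5 and 96.4 CPM at E14, against 0.653 and 0.418 CPM at E12 (log2 fold change 7.47 ± 1.00, adjusted p = 0.00206). Sfn, the epithelial scaffold protein stratifin, had 185 and 191 CPM at E14, against 15.5 and 12.5 CPM at E12 (log2 fold change 3.75 ± 0.52, adjusted p = 0.00228).

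Krt15 and Krt17 were highest at E14 among the 4 ages. Krt15 had 2.89 and 15.5 CPM at E11 and 9.67 and 9.25 CPM at E16, and Krt17 had 0.0752 and 2.27 CPM at E11 and 5.55 and 3.61 CPM at E16. Trp63, the master factor of stratified epithelium, had 90.6 and 144 CPM at E14, against 9.15 and 4.25 CPM at E12 (log2 fold change 4.13 ± 1.02, adjusted p = 0.0252) and no count at E16. Its adjusted p was 0.0702 and 0.0974 without E14 replicates 1 and 2, and 0.0775 and 0.121 without E12 replicates 1 and 2. Krt5 had 38.2 and 74.5 CPM at E14, against 0.109 and 2.09 CPM at E12 and did not pass the test (adjusted p = 0.0816, below 0.05 in 4 of 16 alternatives, the lowest being 0.00578), although both E14 values lay above both E12 values. Upk1a, a urothelial plaque protein, had 178 and 176 CPM at E14, against 96.3 and 159.8 CPM at E12 (adjusted p = 0.327), so it was present at both ages. How far this list contributed to the junction and integrin rises above was not tested.

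**Figure D3:**
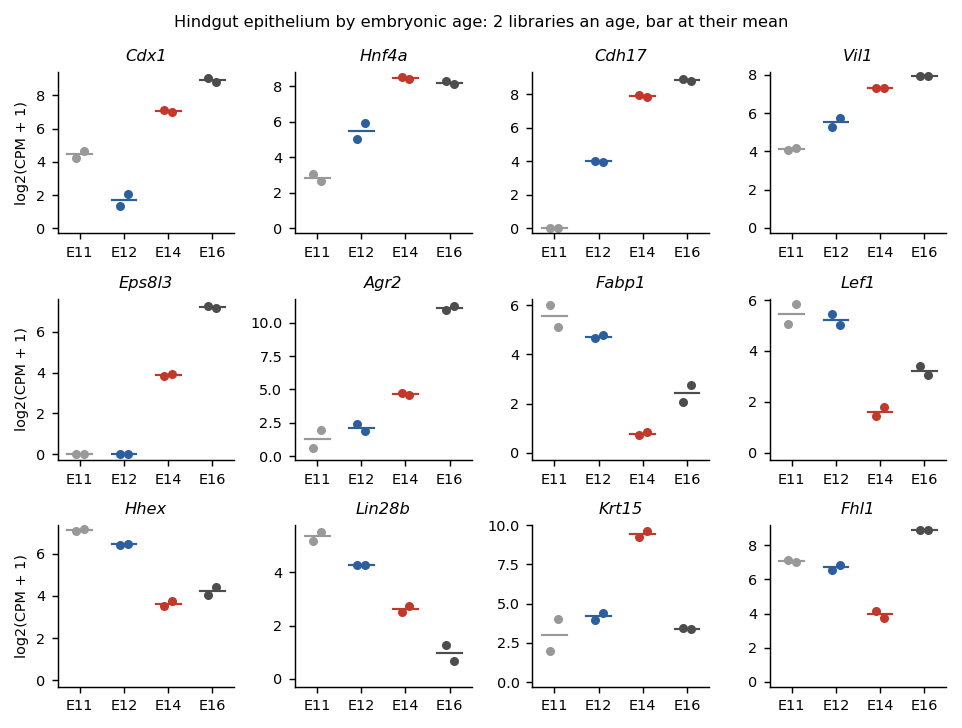
Levels of 12 genes in every hindgut library at E11, E12, E14 and E16 as log2(CPM + 1); each point is a library and each bar the mean of the 2 libraries of an age. Cdx1 is lowest at E12, Cdh17 climbs at each age, and Krt15 is high at E14 alone.

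Genes of crypt stem cells and Wnt targets rose in 12 of 33 tested members and fell in 2, with a median of 0.46; the rises numbered 7 without E12 replicate 2 and the falls 4 with DESeq2. Lgr4, a receptor for the Wnt-enhancing R-spondins, had 488 and 411 CPM at E14, against 146 and 183 CPM at E12 (log2 fold change 1.45 ± 0.14, adjusted p = 6.19e-04). Its relative Lgr5, which marks adult crypt stem cells, had 13.5 and 13 CPM at E14, against 6.5 and 4.08 CPM at E12 and did not pass the test (adjusted p = 0.0958, below 0.05 in 4 of 16 alternatives, the lowest being 0.0202), although the groups did not overlap. Ascl2, a stem cell factor under Wnt control, had 4.83 and 5.81 CPM at E14, against 2.4 and 2.89 CPM at E12 (adjusted p = 0.162). Olfm4, a marker of small intestinal stem cells in the adult, had 17.5 and 17.3 CPM at E14, against 3.16 and 2.37 CPM at E12 (log2 fold change 2.65 ± 0.48, adjusted p = 0.00635). Lrig1, an inhibitor of EGF receptors, had 17.5 and 35.5 CPM at E14, against 5.62 and 3.56 CPM at E12 (log2 fold change 2.53 ± 0.37, adjusted p = 0.00291). Ccnd2, a D cyclin, had 869 and 689 CPM at E14, against 336 and 331 CPM at E12 (log2 fold change 1.22 ± 0.11, adjusted p = 5.01e-04).

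Lef1, a nuclear partner of beta-catenin, was the largest fall of this group, with 1.7 and 2.45 CPM at E14, against 42.9 and 31 CPM at E12 (log2 fold change -4.15 ± 0.39, adjusted p = 5.55e-04). It stood at 32.3 and 56.3 CPM at E11 and 9.55 and 7.3 CPM at E16, so its lowest age was E14. Axin2, a general Wnt target, had 2.83 and 2.9 CPM at E14, against 2.83 and 1.32 CPM at E12 and did not pass the test (adjusted p = 0.581). Sox9, a factor of crypt progenitors, had 393 and 417 CPM at E14, against 296 and 316 CPM at E12 (log2 fold change 0.40 ± 0.12, adjusted p = 0.0364), and without E14 replicate 1, E14 replicate 2, E12 replicate 1 and E12 replicate 2 its adjusted p was 0.0981, 0.15, 0.152 and 0.0847, and 0.0564 with the replicate block. Dkk1, a secreted Wnt inhibitor, had no count at E14, against 12.1 and 8.05 CPM at E12, at least 158-fold lower (adjusted p = 8.81e-04), and 146 and 107 CPM at E11. Among Wnt ligands, receptors and inhibitors as a list, 7 of 38 rose and 5 fell, with a median of -0.13, shares near the background. The rises numbered 3, 4 and 4 without E14 replicate 1, E14 replicate 2 and E12 replicate 2, and the falls 2 and 3 without E14 replicate 1 and E12 replicate 1 and 9 with DESeq2; the median was 0 and 0.05 without E12 replicates 1 and 2.

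Notch pathway genes moved upwards, with 14 of 28 members higher, 2 lower and a median of 0.74. The shares were 50% and 7.14%, against 14.4% and 13.9% of all genes. The rises numbered 9, 9 and 8 without E14 replicate 1, E14 replicate 2 and E12 replicate 2, and the falls 0 or 1 in 8 alternatives. Notch1 had 73.1 and 57.3 CPM at E14, against 11.3 and 8.64 CPM at E12 (log2 fold change 2.71 ± 0.27, adjusted p = 7.40e-04). Notch4 had 20.3 and 24.8 CPM at E14, against 3.56 and 5.33 CPM at E12 (log2 fold change 2.34 ± 0.36, adjusted p = 0.00338). Of the ligands, Jag1 had 16.6 and 25 CPM at E14, against 5.77 and 3.17 CPM at E12 (log2 fold change 2.22 ± 0.40, adjusted p = 0.00635). Dll3, which acts within the cell on other Notch proteins, had 8.23 and 5.52 CPM at E14, against 0 and 0.244 CPM at E12 (log2 fold change 5.74 ± 0.84, adjusted p = 0.00281). Hes1, the repressor that Notch switches on, had 327 and 359 CPM at E14, against 156 and 181 CPM at E12 (log2 fold change 1.02 ± 0.15, adjusted p = 0.00298). The E14 libraries were the higher ones in all of these.

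FGF and EGF family genes rose in 13 of 30 tested and fell in 3 (43.3% and 10%, against 14.4% and 13.9% of all genes), with a median of 0.61. The rises numbered 7 without E14 replicate 1, and the falls 0, 0, 1 and 1 without E14 replicate 1, E14 replicate 2, E12 replicate 1 and E16 replicate 1. Erbb3, a receptor for neuregulins, had 202 and 194 CPM at E14, against 27.1 and 24.9 CPM at E12 (log2 fold change 2.93 ± 0.34, adjusted p = 0.00122). Etv4, an ETS factor that follows FGF signals, had 159 and 139.6 CPM at E14, against 42 and 46.4 CPM at E12 (log2 fold change 1.76 ± 0.16, adjusted p = 4.77e-04). In the BMP and TGF-beta list, 9 of 41 rose and 6 fell (22% and 14.6%, against 14.4% and 13.9% of all genes), with a median of 0.40. Without E14 replicate 1 or 2 the rises numbered 3 or 4 and the falls 1. Bmp2, a BMP ligand, had 114 and 118 CPM at E14, against 45.9 and 52.7 CPM at E12 (log2 fold change 1.23 ± 0.15, adjusted p = 0.0014). Tgfbr2, a TGF-beta receptor, had 54.5 and 46.7 CPM at E14, against 15.1 and 15.5 CPM at E12 (log2 fold change 1.72 ± 0.20, adjusted p = 0.00126). Both genes were higher in both E14 libraries.

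The Hedgehog list held 2 rises and 3 falls among 16 genes, with a median of 0.34, shares near the background. The rises numbered 0, 0 and 1 without E14 replicate 1, E14 replicate 2 and E12 replicate 1, 5 without either E11 library, 4 with the E14 and E12 libraries alone, 6 with DESeq2, and 1 without E16 replicate 2 or with offsets for gene span (described with the ribosomal genes). Shh, the ligand the hindgut epithelium secretes, had 287 and 261 CPM at E14, against 363 and 383 CPM at E12 (log2 fold change -0.44 ± 0.13, adjusted p = 0.036), without overlap. Its adjusted p was 0.145, 0.268, 0.0868 and 0.138 without E14 replicate 1, E14 replicate 2, E12 replicate 1 and E12 replicate 2, and it also missed the threshold in 3 other alternatives. Shh stood at 20.0 and 25.9 CPM at E16, and the earlier change exceeded the later, more negative one by 3.14 on the log2 scale (adjusted p = 2.60e-04). Ihh, the second ligand, had 247 and 268 CPM at E14, against 160.3 and 217 CPM at E12 (adjusted p = 0.0507, below 0.05 in 9 of 16 alternatives, the lowest being 0.0024). Gas1, a co-receptor, had 9.1 and 10.2 CPM at E14, against 29.1 and 26.3 CPM at E12 (log2 fold change -1.52 ± 0.22, adjusted p = 0.00274), and it was lower in both E14 libraries.

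Retinoic acid genes moved in both directions, 5 of 18 upwards and 5 downwards, with a median of -0.38 that became 0.28 without E12 replicate 1 and -0.845 without E12 replicate 2; the falls numbered 3 without E14 replicate 1 or 2. The binding proteins named here fell. Crabp2, which carries retinoic acid to its nuclear receptors, had 4.92 and 11.4 CPM at E14, against 90.3 and 92.3 CPM at E12 (log2 fold change -3.48 ± 0.33, adjusted p = 5.76e-04). Rbp4, the secreted carrier of retinol, had 121 and 115 CPM at E14, against 316 and 360.0 CPM at E12 (log2 fold change -1.52 ± 0.12, adjusted p = 2.53e-04). Rarg, a nuclear receptor for retinoic acid, rose, with 51.4 and 61.4 CPM at E14, against 15.6 and 12.8 CPM at E12 (log2 fold change 1.99 ± 0.22, adjusted p = 0.00107).

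Of 23 early endoderm factors 2 rose and 6 fell at E14 (8.7% and 26.1%, against 14.4% and 13.9% of all genes). Their median was -0.64, or -0.12 without E12 replicate 1. The rises numbered 0 or 1 in 8 alternatives, among them those without any one of the E14 or E12 libraries, and the falls 2 without E14 replicate 2. Hhex, a homeobox factor of early foregut and liver endoderm, had 10.4 and 12.6 CPM at E14, against 83.8 and 88.4 CPM at E12 (log2 fold change -2.91 ± 0.18, adjusted p = 1.12e-04). Sox11, a factor of embryonic progenitors, had 129 and 119 CPM at E14, against 260.3 and 255 CPM at E12 (log2 fold change -1.05 ± 0.13, adjusted p = 0.00156). The posterior Hox genes, which set position along the body, fell in 10 of 21 tested and rose in none, with a median of -0.91. Their share of falls was 47.6%, against 13.9% of all genes. Among all genes averaging at least 10 CPM with a gene span under 5 kb, 38.2% fell, and the Hox list had a median span of 4.42 kb. With span offsets 8 Hox genes fell and 1 rose, with a median of -0.57, and the part of span was not tested further. The falls numbered 4, 3, 6 and 5 without E14 replicate 1, E14 replicate 2, E12 replicate 1 and E12 replicate 2, and the rises 1 or 2 without an E11 library, with the E14 and E12 libraries alone, with DESeq2 or with span offsets. Hoxd9 had 3 and 1.82 CPM at E14, against 14.1 and 9.97 CPM at E12 (log2 fold change -2.31 ± 0.39, adjusted p = 0.00477), Hoxb7 had 8.66 and 5.77 CPM at E14, against 27.7 and 33.8 CPM at E12 (log2 fold change -2.09 ± 0.28, adjusted p = 0.00206). Hoxd8 had 5.09 and 3.98 CPM at E14, against 16.4 and 17.4 CPM at E12 (log2 fold change -1.90 ± 0.26, adjusted p = 0.0021). Hoxb13, the gene at the posterior end of its cluster, had 297 and 296 CPM at E14, against 209.8 and 219 CPM at E12 and did not pass the test (adjusted p = 0.596, below 0.05 in 3 of 16 alternatives, the lowest being 0.00417). The E14 values of Hoxb13 were above those at E12, unlike those of the 3 genes before it. Hoxa13, Hoxd12, Hoxd13, Evx1 and Evx2 on the list did not fall either. Their log2 fold changes lay between 0.09 (Hoxd12) and 2.83 (Evx2), and none passed the test. The summed level of the Hox list was 683.3 and 651.6 CPM at E14, against 721.6 and 769.2 CPM at E12.

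Oncofetal genes, which are active in embryonic tissue and return in tumours, did not move as a block. Of 32 tested, 4 rose and 8 fell (12.5% and 25%, against 14.4% and 13.9% of all genes), with a median of -0.17. The rises numbered 2 without any one of the E14 or E12 libraries, and the falls 5 without E14 replicate 1. Lin28a, an RNA-binding protein that blocks let-7 microRNAs, had 0.522 and 0.871 CPM at E14, against 13.8 and 9.66 CPM at E12 (log2 fold change -4.06 ± 0.55, adjusted p = 0.00218). Lin28b had 4.7 and 5.72 CPM at E14, against 18.5 and 18.1 CPM at E12 (log2 fold change -1.81 ± 0.35, adjusted p = 0.00784), with an adjusted p of 0.0752 without E14 replicate 1. Gpc3, a glypican of embryonic tissues, had 502 and 542 CPM at E14, against 1729 and 2079.5 CPM at E12 (log2 fold change -1.87 ± 0.10, adjusted p = 9.34e-05). Prtg, a receptor of early embryos, had 8.27 and 9.21 CPM at E14, against 33.9 and 30.9 CPM at E12 (log2 fold change -1.89 ± 0.24, adjusted p = 0.00167). Mdk, the growth factor midkine, had 688 and 724 CPM at E14, against 1955 and 1999.9 CPM at E12 (log2 fold change -1.49 ± 0.09, adjusted p = 9.37e-05). Cdkn1c, an imprinted cell cycle inhibitor, had 315 and 339.5 CPM at E14, against 523 and 529 CPM at E12 (log2 fold change -0.68 ± 0.09, adjusted p = 0.0016). In all of these the E12 libraries were the higher ones.

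Others known beside Lin28b as fetal regulators did not pass the test over all ages. Hmga2, a chromatin protein under let-7 control, had 252 and 245 CPM at E14, against 305 and 310.1 CPM at E12 (adjusted p = 0.362, below 0.05 in 1 of 16 alternatives, at 0.0224). Igf2bp1, an RNA-binding protein, had 158 and 171 CPM at E14, against 144 and 143 CPM at E12 (adjusted p = 0.151, below 0.05 in 1 of 16 alternatives, at 0.0292). Igf2, the fetal growth factor, had 460.5 and 379 CPM at E14, against 428 and 401 CPM at E12 (adjusted p = 0.971). The levels of Igf2 overlapped between the ages, and those of Hmga2 and Igf2bp1 did not.

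Cell cycle genes changed unevenly. Of 46 replication genes 5 rose and 14 fell (10.9% and 30.4%, against 14.4% and 13.9% of all genes), with a median of -0.15. Of 45 mitosis genes 8 rose and 6 fell, with a median of -0.07. The mitosis shares, 17.8% and 13.3%, were near those of all genes. Replication had 0, 1, 1 and 0 rises and 2, 2, 7 and 5 falls without E14 replicate 1, E14 replicate 2, E12 replicate 1 and E12 replicate 2; its rises numbered 9 without an E11 library, 10 with the E14 and E12 libraries alone, 3 without an E16 library and 2 with span offsets, and its falls 9 with no filter on low counts. Mitosis had 4, 3, 4 and 5 rises in the same order and 3 and 2 falls without E14 replicates 1 and 2, and its median lay between -0.12 and 0.0069. Mki67, a protein of dividing cells, had 179 and 156 CPM at E14, against 123 and 89.8 CPM at E12 (log2 fold change 0.65 ± 0.19, adjusted p = 0.0387), and its adjusted p was 0.184, 0.0893 and 0.177 without E14 replicate 1, E14 replicate 2 and E12 replicate 2, and between 0.0563 and 0.0571 in 3 other alternatives. Foxm1, a factor of mitotic genes, had 108 and 111 CPM at E14, against 48.3 and 55.2 CPM at E12 (log2 fold change 1.08 ± 0.16, adjusted p = 0.00297). Kif4, a chromosome-bound kinesin, had 103 and 110.5 CPM at E14, against 49.8 and 51.2 CPM at E12 (log2 fold change 1.08 ± 0.18, adjusted p = 0.00483). Dut, an enzyme that removes dUTP before replication, went the other way, with 138 and 146 CPM at E14, against 269.9 and 235 CPM at E12 (log2 fold change -0.83 ± 0.12, adjusted p = 0.00309). Top2a had 389.9 and 404 CPM at E14, against 328 and 305 CPM at E12 (adjusted p = 0.075, below 0.05 in 8 of 16 alternatives, the lowest being 0.00493). Mcm6, a subunit of the replicative helicase, had 661 and 659 CPM at E14, against 618 and 523 CPM at E12 (adjusted p = 0.208). Neither passed the test over all ages, and in both genes the E14 libraries stood above the E12 libraries.

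Inhibitors of the cell cycle and D cyclins rose in 10 of 21 tested and fell in 4, with a median of 0.78. Without E14 replicate 1 or 2 the rises numbered 6 and the falls 1, and the falls numbered 2 without E16 replicate 1 or with span offsets. Btg2, an antiproliferative protein, had 136 and 138 CPM at E14, against 26 and 41.4 CPM at E12 (log2 fold change 2.02 ± 0.19, adjusted p = 5.74e-04). Rbl2, a retinoblastoma relative of resting cells, had 24.3 and 18.3 CPM at E14, against 7.58 and 7.63 CPM at E12 (log2 fold change 1.48 ± 0.22, adjusted p = 0.00281). Both were higher in both E14 libraries.

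Ribosomal protein genes fell almost as a whole, by a small amount each. Of 49 tested, 44 fell and none rose, with a median of -0.63, and the sum over the list was 11920 and 12750 CPM at E14, against 19130 and 17890 CPM at E12. Rpl37, of the large subunit, had 162 and 176 CPM at E14, against 307 and 282 CPM at E12 (log2 fold change -0.80 ± 0.14, adjusted p = 0.0054, or 0.0666 without E14 replicate 1), and Rplp0, of the stalk of that subunit, had 647 and 704 CPM at E14, against 813 and 779 CPM at E12 and did not pass the test (adjusted p = 0.0645, below 0.05 in 1 of 16 alternatives, at 0.034). Subunits of oxidative phosphorylation fell in 38 of 55 tested and rose in none, with a median of -0.55. Their sum was 12650 and 13170 CPM at E14, against 16820 and 16730 CPM at E12. Ndufa1, of complex I, had 39 and 40.6 CPM at E14, against 76.2 and 91.3 CPM at E12 (log2 fold change -1.07 ± 0.16, adjusted p = 0.0029). Cox6c, of cytochrome oxidase, had 142 and 143 CPM at E14, against 289.6 and 273 CPM at E12 (log2 fold change -0.98 ± 0.15, adjusted p = 0.00365). The large subunits of ATP synthase did not pass the test. Atp5b had 2089 and 2095 CPM at E14, against 2349 and 2304 CPM at E12 (adjusted p = 0.115) and Atp5a1 had 1344 and 1332 CPM at E14, against 1206 and 1293 CPM at E12 (adjusted p = 0.328, below 0.05 in 1 of 16 alternatives, at 0.0389).

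The falls of these lists went with gene span, the distance from a gene's start to its end in the genome, which was known for 94.3% of the tested genes. Among genes averaging at least 10 CPM and spanning under 5 kb, 8.61% rose and 38.2% fell, with a median of -0.38. Among those spanning 100 kb or more, 28.6% rose and 12.2% fell, with a median of 0.28. The median span was 3.41 kb in the ribosomal list and 7.28 kb in the oxidative phosphorylation list. When each library's trend on span was taken out, 22 ribosomal protein genes fell, with a median of -0.30, and 28 oxidative phosphorylation genes fell and 1 rose, with a median of -0.37. Without E14 replicates 1 and 2 the ribosomal falls numbered 10 and 21, and the oxidative phosphorylation falls 7 and 12. The part of span in the falls beyond these values was not tested. Ribosomal protein genes have many near-identical copies in the genome, so reads mapped to several places can be missing from their counts.

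**Figure D4:**
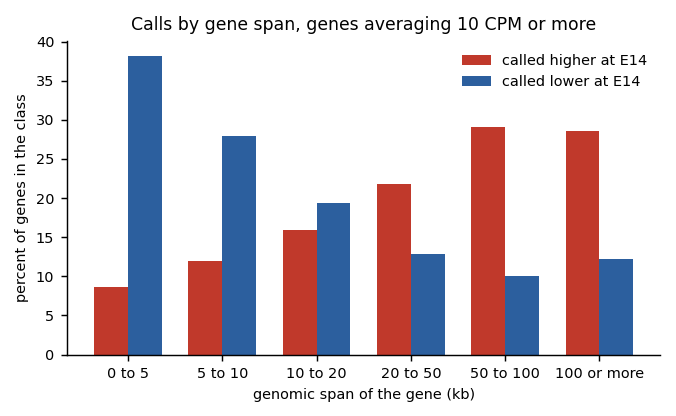
Percent of genes called higher (red) and lower (blue) at E14 by genomic span in kb, for genes averaging at least 10 CPM. Under 5 kb, 8.61% were higher and 38.2% lower; at 100 kb or more, 28.6% were higher and 12.2% lower.

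Other metabolic groups differed from this pattern. Cholesterol synthesis genes rose in 13 of 24 tested and fell in none, with a median of 0.52. Insig1, which restrains the pathway when sterols are plentiful, had 127 and 129.6 CPM at E14, against 64.6 and 35.2 CPM at E12 (log2 fold change 1.37 ± 0.24, adjusted p = 0.00581). Lss, the enzyme that makes lanosterol, had 88.6 and 94.2 CPM at E14, against 45.4 and 36.2 CPM at E12 (log2 fold change 1.16 ± 0.15, adjusted p = 0.00161). Both E14 libraries were the higher ones for each. Scd2, a fatty acid desaturase, was among the largest rises in CPM, with 1998 and 2028 CPM at E14, against 642 and 724 CPM at E12 (log2 fold change 1.56 ± 0.10, adjusted p = 1.48e-04).

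Glycolysis genes rose in 10 of 28 and fell in 4, with a median of 0.52; the falls numbered 2 without E14 replicate 1 or 2. The glycolysis shares were 35.7% higher and 14.3% lower, against 14.4% and 13.9% of all genes. Ndrg1, a gene induced by low oxygen and in differentiating epithelium, had 337 and 286 CPM at E14, against 15 and 14.8 CPM at E12 (log2 fold change 4.39 ± 0.50, adjusted p = 0.00117). Slc2a3, a high-affinity glucose carrier of early embryos, had 44.3 and 48.5 CPM at E14, against 268 and 245 CPM at E12 (log2 fold change -2.46 ± 0.22, adjusted p = 4.73e-04). Ldhb, a lactate dehydrogenase subunit, had 61.9 and 65.8 CPM at E14, against 274 and 204 CPM at E12 (log2 fold change -1.90 ± 0.15, adjusted p = 2.85e-04), while the other subunit, Ldha, had 2672 and 2776 CPM at E14, against 1689 and 2240.2 CPM at E12 and did not pass the test (adjusted p = 0.108, below 0.05 in 5 of 16 alternatives, the lowest being 0.0177). The glucose carrier and Ldhb were higher in both E12 libraries.

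Sorted hindgut cells can hold cells of neighbouring tissues, and germ cell genes were among the largest falls. Primordial germ cells migrate through the hindgut of the early embryo on their way to the gonads. Of 20 germ cell genes tested, 11 fell and 1 rose, with a median of -5.41, or -5.17 with genes absent at one age set at their bound. The falls numbered 2, 2 and 7 without E14 replicate 1, E14 replicate 2 and E12 replicate 1, and the rises 0 without E14 replicate 1, E14 replicate 2 or E12 replicate 2 or with offsets for gene span and 2 without E12 replicate 1. Dppa5a, a pluripotency-linked RNA-binding protein, had no count at E14, against 182 and 16.7 CPM at E12, at least 1530-fold lower (adjusted p = 0.00939). Rhox9, a homeobox gene of the reproductive tract and germ cells, had no count at E14, against 62.4 and 8.44 CPM at E12, at least 547-fold lower (adjusted p = 0.00774). Tcl1 and Foxh1, known from pluripotent cells, lie outside the list and were named for the size of their falls. Tcl1 had no count at E14, against 25.9 and 3.63 CPM at E12, at least 228-fold lower (adjusted p = 0.00855), and Foxh1 had none at E14, against 17.5 and 2.68 CPM at E12, at least 156-fold lower (adjusted p = 0.00863). In every one of these genes E12 replicate 1 was several-fold above E12 replicate 2, and both were above the E14 libraries.

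Further genes named for the size of their falls, or from the list, went the same way. Rhox5 had 0.0435 and 0.124 CPM at E14, against 115 and 9.79 CPM at E12 (log2 fold change -9.43 ± 1.57, adjusted p = 0.00465). Rpl39l, a ribosomal protein of male germ cells, had 0.0435 and 0 CPM at E14, against 23.1 and 2.44 CPM at E12, an E12 over E14 ratio of 592 (95% interval 106 to 23400) (adjusted p = 0.00544). Dppa3 had 0.0871 and 0 CPM at E14, against 131 and 12.1 CPM at E12, an E12 over E14 ratio of 1660 (95% interval 458 to 13700) (adjusted p = 0.00603, or 0.0502 and 0.0535 without E14 replicates 1 and 2). Rhox6 and Trap1a had no count at E14 and were at least 331-fold and 180.0-fold lower there (adjusted p = 0.013 and 0.0139, which became 0.0623 and 0.066 without E14 replicate 1 and 0.0606 and 0.0641 without E14 replicate 2). Utf1 had 0.0435 and 0.124 CPM at E14, against 90.4 and 8.16 CPM at E12 (log2 fold change -9.10 ± 1.63, adjusted p = 0.00613), with 0.06 and 0.0521 in the same order. Kit, which germ cells share with other cells, had 197 and 207 CPM at E14, against 152 and 149.8 CPM at E12 (log2 fold change 0.42 ± 0.10, adjusted p = 0.0193), and it missed the threshold without any one of these 4 libraries, with adjusted p between 0.0734 and 0.106, and with span offsets, with 0.298. The summed level of the germ cell list was 404.4 and 444.8 CPM at E14, against 1098 and 383.4 CPM at E12, so only E12 replicate 1 stood out in the sum. Kit alone gave 197 and 207 CPM of that sum at E14, and 152 and 149.8 CPM at E12. Dppa5a, Rhox6 and Rhox9 gave none at E14, so the E14 sum does not stand for the listed genes that fell.

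Genes of the nephric duct and kidney, whose ducts join the cloaca, fell in 8 of 16 tested and rose in none, with a median of -1.81. The falls numbered 5 without E14 replicate 1 or 2, and 1 gene rose without E12 replicate 2 or with DESeq2. The summed level went down along the ages, with 1648 and 1422 CPM at E11, 357.5 and 371.4 CPM at E12, 258 and 234.9 CPM at E14, and 161 and 158.3 CPM at E16. Calb1, a calcium binder of the ducts, had no count at E14, against 15.1 and 20.3 CPM at E12, at least 279-fold lower (adjusted p = 3.40e-04), and 686 and 519 CPM at E11. Lhx1, a factor of the early kidney, had 0 and 0.0415 CPM at E14, against 5.48 and 1.67 CPM at E12, an E12 over E14 ratio of 167 (95% interval 29.6 to 6610) (adjusted p = 0.00295). Gata3, a factor of the nephric duct, had 9.84 and 11.9 CPM at E14, against 38.8 and 39.6 CPM at E12 (log2 fold change -1.85 ± 0.14, adjusted p = 2.10e-04).

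Mesenchymal genes moved in both directions, with 6 of 22 higher and 4 lower (27.3% and 18.2%, against 14.4% and 13.9% of all genes) and a median of 0.18. Without E12 replicate 1 the rises numbered 10 and the median was 1.86, without E12 replicate 2 the median was -0.04, and without the E16 libraries the rises numbered 2. Their summed level was nevertheless lower, at 697.4 and 678.1 CPM at E14, against 2140 and 2515 CPM at E12, since Postn, a matrix protein, had 435 and 417 CPM at E14, against 1662 and 2149 CPM at E12 (log2 fold change -2.16 ± 0.17, adjusted p = 2.71e-04). Prrx1, a factor of limb and body wall mesenchyme, had 0.305 and 0.622 CPM at E14, against 22.4 and 26.1 CPM at E12 (log2 fold change -5.69 ± 0.44, adjusted p = 2.52e-04). Vim, the intermediate filament of mesenchyme, had 55.5 and 49.9 CPM at E14, against 207 and 199.5 CPM at E12 (log2 fold change -1.95 ± 0.12, adjusted p = 1.21e-04). Fn1, a matrix glycoprotein, had 1283 and 1243 CPM at E14, against 478 and 492 CPM at E12 (log2 fold change 1.38 ± 0.17, adjusted p = 0.00142), the opposite direction. Macrophage and other immune genes rose in 10 of 16 tested and fell in none, with a median of 2.82; the rises numbered 6 without E14 replicate 1 or with the E14 and E12 libraries alone, and 4 without the E16 libraries. Their sum was 3.645 and 4.156 CPM at E11, 21.37 and 6.135 CPM at E12, 123 and 121.7 CPM at E14, and 2515 and 2644 CPM at E16. Csf1r, the macrophage growth factor receptor, had 18.9 and 22.8 CPM at E14, against 0.69 and 2.72 CPM at E12 (log2 fold change 3.60 ± 0.54, adjusted p = 0.00312). Mrc1, a mannose receptor, had 12.7 and 12.9 CPM at E14, against 0.653 and 0 CPM at E12 (log2 fold change 5.28 ± 0.87, adjusted p = 0.00619). Ptprc, the common leukocyte antigen, had 2 and 1.66 CPM at E14, against 1.31 and 0 CPM at E12 and did not pass the test (adjusted p = 0.293, or 0.00435 without E12 replicate 1).

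Red cell genes had a summed level of 9.797 and 12.28 CPM at E14, against 315.8 and 23.42 CPM at E12, where the 2 libraries differed over 10-fold; 3 of 9 tested fell and none rose, with a median of -2.07, or -1.71 with genes absent at one age at their bound. No fall remained without E14 replicate 1 or 2, and without E12 replicate 1 there were 2 rises and a median of 0. Enteric neural genes summed to 299.4 and 282.2 CPM at E14, against 163.2 and 160.7 CPM at E12, with 1 of 18 higher and 3 lower and a median of -1.24; the rises numbered 2 in 5 alternatives, and the falls 6 with DESeq2. Their one rise was Erbb3, given above among the receptors, and without it the sum was 97.9 and 88.5 CPM at E14, against 136 and 136 CPM at E12, so the higher sum at E14 rested on that gene. Stmn2, a neuronal tubulin-binding protein, had 2.96 and 2.03 CPM at E14, against 19.3 and 33.3 CPM at E12 (log2 fold change -3.40 ± 0.56, adjusted p = 0.0045). Smooth muscle genes rose in 6 of 13 and fell in 4, with a median of 0.84; the rises numbered 2 without the E16 libraries, and the falls 2 without E14 replicate 1 or 2. Endothelial genes rose in 2 of 11 and fell in 1, with a median between -1.13 and 3.83 over the alternatives. The shares were 46.2% and 30.8% for smooth muscle and 18.2% and 9.09% for endothelium, against 14.4% and 13.9% of all genes. These lists summed to at most 119.6 CPM in any E14 or E12 library. What part these cells have in the epithelial changes was not tested.

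**Figure D5:**
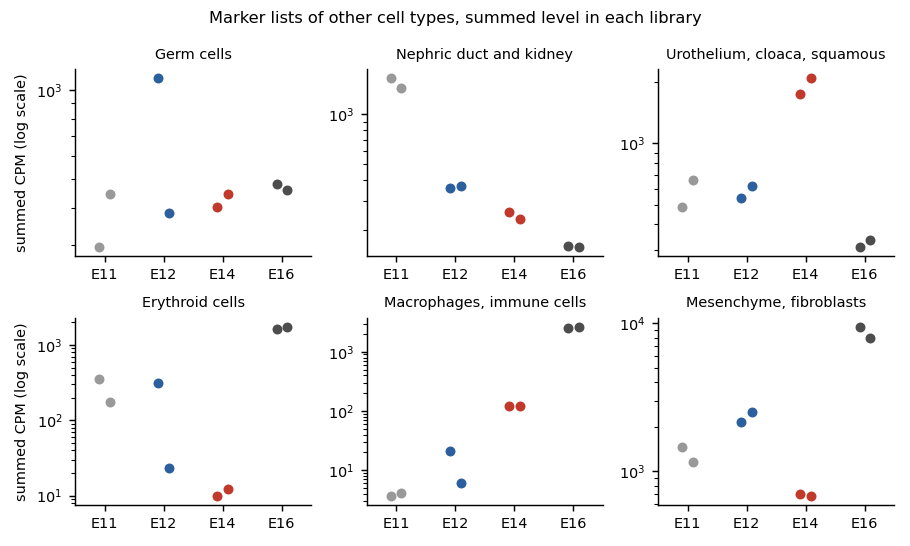
Summed CPM (log scale) of marker lists of other cell types in each hindgut library at E11, E12, E14 and E16, one point per library. Germ cell genes stand out in E12 replicate 1 (1098 CPM), nephric genes go down with age, squamous genes peak at E14 (1754 and 2097 CPM), and macrophage genes climb to 2515 and 2644 CPM at E16. The germ cell sum includes Kit, which other cells share.

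The E14 against E12 step was set beside the E16 against E14 step, which spans the same 2 days and shares the E14 libraries. The step from E12 to E14 differed from the step from E14 to E16 in 3772 genes (22.9% of those tested), by edgeR's quasi-likelihood test of the difference itself. The E12 against E11 step, which spans a shorter time than these 2 steps, called 434 genes (2.63%), and the E16 against E14 step called 6530 (39.6%). In the span-corrected fit 1520 genes had the higher change at the earlier step and 1883 the lower, against 2098 and 1674 without that correction. Single genes differed in the step at which they rose more. Cdh17 rose more at the earlier step (difference 3.09, adjusted p = 2.32e-04), as did Hnf4a (difference 3.19, adjusted p = 0.00246) and Cdx1 (difference 3.89, adjusted p = 9.12e-04). Agr2 rose more at the later step (difference -3.74, adjusted p = 0.011), as did Tff3 (difference -6.96, adjusted p = 8.28e-05), which reached 2075 and 2727 CPM at E16. The E16 libraries had 3.085% and 3.501% of reads set aside as ambiguous between genes, against 0.8118% and 0.8332% at E14, and the part of this in the later step was not tested.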

How the data were processed

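The samples analysed are RNA-seq libraries of sorted mouse hindgut epithelium. The deposited table holds whole-number read counts per gene, not normalized, which the authors made by read alignment and counting; the submitters' processing notes name STAR 2.5.3a, HTSeq and DESeq2 and the build GRCm38/mm10, and the labels' protocols name a low-input template-switching kit (SMARTer) and single-end reads. The kit is not strand-specific; the strand setting and the gene annotation are not given in the sources used here, so genes that overlap each other or an antisense gene, or that have near-identical copies, are uncertain. Rows with counts outside genes were dropped; of all reads, those in no gene made 9.102% and 8.354% in the E14 libraries and 7.97% and 8.493% in the E12 libraries, and those mapped to several places made 28.37% and 28.68% at E14 and 32.35% and 32.66% at E12. A further 7 columns of other samples were not used.

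From these counts the following was computed. Groups came from the age in the labels. All 8 hindgut libraries entered one fit in edgeR 4.0.16 (limma 3.58.1, R 4.3.3), with scaling by the trimmed mean of M-values, edgeR's filter on low counts by age, and the two-sided quasi-likelihood F test of E14 minus E12; the SE was derived from the F statistic. The same fit tested whether the E14 minus E12 change differed from the E16 minus E14 change. P-values were adjusted by Benjamini-Hochberg over all genes tested, with a threshold of 0.05. A group with no count was set at 3 counts over both libraries and the fold written as a bound; with 1 to 3 counts, the ratio is given with an exact 95% binomial interval, which covers counting error only, since PCR reads without molecular identifiers are not independent molecules. The script was tested on simulated counts.

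Named genes are the 12 largest rises and falls among called genes of at least 10 CPM without overlap, up to 6 called and 4 uncalled members of each of the 47 gene lists, a fixed set of intestinal and fetal genes, the 5 rises and 5 falls largest in CPM, and the 5 smallest p-values of the step difference; not all of them are described, and some list members are not reported here. Elf3, Klf4, Klf5, Krt8, Espn, Car2, Atp1b1, Muc2, Cpe, Rfx6, Chga, Chgb, Scg2, Scg3, Trim31, Clrn3, Tjp3, Kit, Axin2, Notum, Sp5, Cym, Hes1 and Mir6236 fall outside that rule and were chosen after their values were seen. Hoxa13, Hoxd12, Hoxd13, Evx1, Evx2, Scnn1a and Slc40a1 were also named after their values were seen. The comparison and the lists were chosen with earlier results of these data known. Gene spans and promoters come from RefSeq tables of build GRCm38.p6. Alternatives were other scalings, DESeq2 1.42.0, no filter on low counts, fewer libraries, a replicate block and, added after the data were seen, offsets for gene span and a fit without the E16 libraries. The list of mitochondrially encoded genes had no member in the table and gave no result.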

Additional observations from a re-analysis of the deposited data

Results flagged for a closer look

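The change between E12 and E14 and the change between E14 and E16 differed most clearly, by the smallest p-values of the test of that difference, in 5 genes with at least 10 CPM at E14. Each had an adjusted p of 6.17e-05 by edgeR's quasi-likelihood test, and the 2 libraries of each age lay close together.

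Fhl1, a LIM domain protein, had 16.7 and 12.5 CPM at E14, against 93.1 and 115 CPM at E12 (log2 fold change -2.83 ± 0.17, adjusted p = 9.37e-05), and 485 and 478 CPM at E16. It fell at the earlier step and rose at the later one, a difference of -7.88 on the log2 scale. Apoe, the apolipoprotein E gene, had 72.2 and 66.4 CPM at E14, against 79.8 and 87 CPM at E12 and 961 and 904 CPM at E16, a difference of -4.02. Its E14 against E12 change was -0.27 ± 0.10 and did not pass the test (adjusted p = 0.0732, below 0.05 in 1 of 16 alternatives, at 0.031). Macrophages are known to express Apoe; the macrophage list summed to 2515 and 2644 CPM at E16, against 123 and 121.7 CPM at E14, and its part in this difference was not tested.

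Etv4 had 7.89 and 5.94 CPM at E16 after its rise at E14, a difference of 6.18. Cldn6 fell at both steps and much more at the later one, where it reached 34.9 and 37.5 CPM, a difference of 3.32. Lars2, the mitochondrial leucyl-tRNA synthetase, had 4080.5 and 3459.7 CPM at E14, against 547 and 492 CPM at E12 (log2 fold change 2.86 ± 0.16, adjusted p = 9.34e-05), with 910.5 and 746 CPM at E11 and 319 and 400.2 CPM at E16, so it was high at E14 alone, a difference of 6.25.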

How the results depend on the processing

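The count of genes called in E14 against E12 (4672) ranged between 1717 (without E14 replicate 1) and 5846 when single libraries were left out; it was 1877 without E14 replicate 2 and 3104 without E12 replicate 1. Under the other alternatives, the calls of both directions together lay between 4012 and 6611. For the difference between the steps (3772 genes), leaving out single libraries gave between 1088 (without E14 replicate 1) and 5097, with 1184 without E14 replicate 2 and 2303 without E16 replicate 2, and DESeq2's Wald test called 5837; the cause of that higher count was not tested. Replicate numbers did not pair the samples, since deviations of same-numbered libraries correlated between -0.111 and 0.0574 over 10647 genes for the 6 pairs of ages; with the replicate number as a block, 4012 genes were called in E14 against E12 and 3183 in the difference between the steps. Leaving out either E11 library raised the first count to 5831 or 5846.

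Car4, Scnn1a, Slc40a1, Hoxa13, Hoxd12, Hoxd13, Evx1, Evx2 and the granins were not followed singly through the alternatives. Of 140 other called genes in the text, 127 kept their call and direction under every alternative and 13 lost the call under at least one, each named with its values. Of 31 that missed the threshold, 18 passed it in the same direction under at least one alternative; with the replicate block these were Ihh, Krt5 and Ldha (adjusted p = 0.0497, 0.0223 and 0.0451). Directions turned round in 12 genes, of which only Cym was called. With span offsets the log2 fold change of Atp5b was 0.0335, of Dpp4 -0.12, of Igf2bp1 -0.0134 and of Rplp0 0.0422. With single libraries left out, the log2 fold change of Cdx2 ranged between -0.83 and 0.058 (the last without E14 replicate 2), of Igf2 between -0.0972 and 0.19 (the first without E14 replicate 1, and -0.0286 without E12 replicate 2), of Muc2 between -2.67 and 3.69 and of Slc9a3r1 between -0.22 and 0.0141 (both the last without E12 replicate 1). Without E14 replicate 2 it was lowest in Cym at -5.13 (highest 10.70), Gata4 at -0.88 (highest 3.35), Notum at -4.79 (highest 2.92) and Sp5 at -4.31 (highest 2.49). With 2 libraries an age, small changes of genes with low counts were not detectable.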

Other observations

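Surface genes known from fetal and regenerating gut epithelium rose in 12 of 25 tested and fell in 2, against 14.4% and 13.9% of all genes, with a median of 1.06; the falls numbered 1 without E14 replicate 1, E14 replicate 2, E12 replicate 2 or E16 replicate 1 or with span offsets. S100a6, a calcium-binding protein, had 196 and 195 CPM at E14, against 17.2 and 16.8 CPM at E12 (log2 fold change 3.52 ± 0.14, adjusted p = 3.22e-05). Il1rn, the interleukin-1 receptor antagonist, had 20.1 and 18.4 CPM at E14, against 0.363 and 0.279 CPM at E12 (log2 fold change 5.88 ± 0.44, adjusted p = 4.51e-04). Msln, mesothelin, had 85.3 and 90.3 CPM at E14, against 5.77 and 13 CPM at E12 (log2 fold change 3.23 ± 0.40, adjusted p = 0.00158). All were higher in both E14 libraries. Il1rn and Msln are also known from squamous and mesothelial cells, whose part here was not tested.

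Immediate-early genes, which also answer to tissue dissociation, rose in 8 of 20 and fell in 1, with a median of 0.56; the rises numbered 2, 5 and 5 without E14 replicate 1, E14 replicate 2 and E12 replicate 2, and the falls 0 without E14 replicate 2 and 3 without E12 replicate 1. Zfp36, an mRNA decay factor, had 261 and 254 CPM at E14, against 70.1 and 56.6 CPM at E12 (log2 fold change 2.02 ± 0.29, adjusted p = 0.00279). Junb had 256 and 259.5 CPM at E14, against 102 and 74.8 CPM at E12 (log2 fold change 1.54 ± 0.24, adjusted p = 0.0035). Fos had 801 and 762 CPM at E14, against 269 and 294 CPM at E12 and Egr1 had 626 and 619.6 CPM at E14, against 227 and 273 CPM at E12, with no overlap, but neither passed the test over all ages (adjusted p = 0.11 and 0.129). Both passed without either E11 library or with the E14 and E12 libraries alone, with adjusted p between 4.41e-05 and 3.98e-04 for Fos and between 2.07e-04 and 0.00108 for Egr1. Fxyd4, a regulator of the sodium pump in the colon, was the one rise among 10 colon regional genes (up to 4 rose in 9 alternatives), with 52.9 and 47.7 CPM at E14, against 0.944 and 3.07 CPM at E12 (log2 fold change 4.64 ± 0.74, adjusted p = 0.00399). Among detoxifying and antioxidant enzymes 7 of 24 rose and 3 fell, with a median of 0.19; without E14 replicate 1, E14 replicate 2 and E12 replicate 1 the rises numbered 2, 1 and 3, and without either E14 replicate the falls 1. The shares of these enzymes were 29.2% higher and 12.5% lower, against 14.4% and 13.9% of all genes. Gpx3, a secreted glutathione peroxidase, had 84.3 and 80.8 CPM at E14, against 169.6 and 150.2 CPM at E12 (log2 fold change -0.95 ± 0.10, adjusted p = 7.49e-04).

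Other genes absent or nearly so at E12 were among the largest rises. Ms4a8a, a membrane protein of the MS4A family, had 11.9 and 12.4 CPM at E14, against 0.0363 and 0 CPM at E12, a ratio of 685 (95% interval 122 to 27100) (adjusted p = 1.14e-04), and Cyp2w1, a cytochrome P450 of the fetal colon, had 11.4 and 12.3 CPM at E14, against 0 and 0.0349 CPM at E12, a ratio of 667 (95% interval 119 to 26400) (adjusted p = 4.02e-04). Ndufa4l2, a mitochondrial protein induced by low oxygen, had 29.6 and 32.8 CPM at E14, against 0.181 and 0 CPM at E12 (log2 fold change 8.37 ± 0.76, adjusted p = 4.76e-04). Cyp11a1, the first enzyme of steroid synthesis, had 21.2 and 24.7 CPM at E14, against 0.218 and 0 CPM at E12 (log2 fold change 7.67 ± 0.76, adjusted p = 0.00111). Both E14 libraries were near each other in all of these.

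Some of the largest changes in CPM lay in non-coding RNA. Malat1, a nuclear long non-coding RNA, had 554 and 401 CPM at E14, against 3756 and 3913 CPM at E12 (log2 fold change -3.01 ± 0.17, adjusted p = 9.34e-05), with 3662 and 3172 CPM at E11 and 2579 and 3099.9 CPM at E16, so E14 was its lowest age. Mir6236 had 834 and 793 CPM at E14, against 144 and 159.5 CPM at E12 (log2 fold change 2.42 ± 0.16, adjusted p = 1.38e-04). Rn45s, the precursor of ribosomal RNA, had 6227 and 4272 CPM at E14, against 8107 and 7396 CPM at E12 (log2 fold change -0.56 ± 0.17, adjusted p = 0.0425), and missed the threshold in 10 alternatives, with adjusted p between 0.0518 and 0.244 (the last without E14 replicate 2).

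The E14 libraries differed from each other in a few genes. Cym, the stomach protease chymosin, had 0 and 134 CPM at E14, against 0.327 and 0.0349 CPM at E12 and was the one called gene whose values overlapped between the ages (adjusted p = 0.0428, and between 0.0716 and 0.172 in 5 alternatives that kept its direction, such as 0.14 and 0.172 without E12 replicates 1 and 2). Notum, a Wnt inhibitor, had 0.0871 and 19.3 CPM at E14, against 3.19 and 2.02 CPM at E12, Sp5, a Wnt target, had 0.0435 and 5.43 CPM at E14, against 1.31 and 0.662 CPM at E12, and Gata4, a factor of the foregut and upper intestine, had 0.392 and 7.47 CPM at E14, against 0.544 and 0.941 CPM at E12, none of which passed the test over all libraries. Notum rose without E14 replicate 1 (log2 fold change 2.92, adjusted p = 0.028) and fell without E14 replicate 2 (-4.79, adjusted p = 0.0307). In all 4 genes E14 replicate 2 stood above the other libraries of the 2 ages. Of 5 sex-linked genes 3 fell and none rose (1 fell without E14 replicate 1, E14 replicate 2 or E12 replicate 2), Eif2s3y on the Y chromosome having 24.4 and 19.1 CPM at E14, against 74.2 and 62.3 CPM at E12 (log2 fold change -1.65 ± 0.18, adjusted p = 0.00105) and Xist 119 and 73.4 CPM at E14, against 162 and 106 CPM at E12 (adjusted p = 0.204), so both genes were detected in all 4 libraries.

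Other lists held few calls or moved with single libraries. Against the 14.4% and 13.9% of all genes, the nucleolar list had 22.2% higher and 16.7% lower. The MHC class I and interferon list had 20.8% higher and 12.5% lower. Nucleolar genes rose in 8 of 36 and fell in 6, with 0, 2, 5 and 1 rises and 2, 2, 3 and 3 falls without E14 replicate 1, E14 replicate 2, E12 replicate 1 and E12 replicate 2, and 10 falls with DESeq2. MHC class I and interferon genes rose in 5 of 24 and fell in 3, with 0, 1 and 2 rises without E14 replicate 1, E14 replicate 2 and E12 replicate 2, and 1 without the E16 libraries. Small intestinal regional genes rose in 2 of 13 and fell in 3, stomach and lung genes rose in 2 of 8 and fell in none, mesothelial genes rose in 4 of 9 and fell in 2, and tuft cell genes rose in 1 of 13 and fell in 1. The mesothelial falls numbered 0 or 1 in 7 alternatives. No rise remained in the small intestinal, stomach and lung, and tuft lists without E14 replicate 1, E14 replicate 2 or E12 replicate 1.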
